A study of Mus musculus with 6 samples.

Results

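The genes described here move lactate and pyruvate across membranes or act on them: the monocarboxylate carriers Slc16a1, Slc16a3, Slc16a7 and Slc16a8, their partner Bsg, the mitochondrial pyruvate carrier genes Mpc1 and Mpc2, the lactate dehydrogenase genes Ldha and Ldhb, and the pyruvate dehydrogenase kinase gene Pdk1. These 10 genes were found by matching the accession of every gene probe to the gene's symbol, which gave 14 of the 39429 gene probes on the array, for 10 of 20659 symbols matched in the same way. The set was chosen on measured values, since Slc16a7 and Pdk1 read low in homozygous embryos on these arrays. Differences that involve homozygous embryos are therefore given as a description, with no p-value for any of these genes. Calls from the fit over all probes are counted for them only beside the share of all probes called. Heterozygous against wild-type embryos, which the choice did not use, were tested.

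The samples were whole mouse embryos at day 12 that carried the STAT3-K177K180R allele in homozygous form (2 embryos), in heterozygous form (2 embryos) or not at all (wild type, 2 embryos). STAT3 is a transcription factor activated by cytokines, and the allele name gives arginine in place of lysine at 2 nearby residues. The labels place embryos of the 3 genotypes in the same womb, do not say which embryos shared a mother, and name tumor tissue in the extraction text. The labels name no tissue-restricted promoter or Cre. Total RNA of each embryo was labelled with Cy3 and hybridised to 1 Agilent array of a 1-colour design. All 14 probes read well above background on all 6 arrays.

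Lactate is made from pyruvate by lactate dehydrogenase in the cytosol and crosses the cell membrane together with a proton through monocarboxylate carriers. Pyruvate enters the mitochondrion through a carrier built from MPC1 and MPC2 and is then oxidised by the pyruvate dehydrogenase complex, which pyruvate dehydrogenase kinases switch off. Early embryos rely on pyruvate and lactate, and after implantation on glycolysis with release of lactate. Several of these genes, Pdk1, Ldha and Slc16a3 among them, are known targets of hypoxia-inducible factors, which bind DNA at a short core motif.

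Promoters are shown for Pdk1 and Mpc2, which read low in homozygous embryos, for Slc16a1, which read high, and for Ldha and Slc16a3, known hypoxia targets that read close to wild type at their brightest probes. They come from RefSeq on build GRCm38.p6 and run from 250 bases before to 50 bases after a gene's start. They lie at chr2:71872974-71873273 (Pdk1, plus strand, the first of 2 listed starts), chr1:165461010-165461309 (Mpc2, plus strand), chr3:104638414-104638713 (Slc16a1, plus strand), chr7:46845554-46845853 (Ldha, plus strand, the first of 2 listed starts) and chr11:120948817-120949116 (Slc16a3, plus strand). Capitals mark the ACGTG form of the hypoxia response core, read on both strands (CACGT on the other). They also mark the STAT core TTCNNNGAA, which reads the same on both strands.
Pdk1: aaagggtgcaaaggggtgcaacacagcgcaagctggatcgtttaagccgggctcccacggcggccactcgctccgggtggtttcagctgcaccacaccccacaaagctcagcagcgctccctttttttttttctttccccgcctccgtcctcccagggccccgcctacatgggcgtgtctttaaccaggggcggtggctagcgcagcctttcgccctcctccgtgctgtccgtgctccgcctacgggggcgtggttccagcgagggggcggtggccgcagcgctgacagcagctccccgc
Mpc2: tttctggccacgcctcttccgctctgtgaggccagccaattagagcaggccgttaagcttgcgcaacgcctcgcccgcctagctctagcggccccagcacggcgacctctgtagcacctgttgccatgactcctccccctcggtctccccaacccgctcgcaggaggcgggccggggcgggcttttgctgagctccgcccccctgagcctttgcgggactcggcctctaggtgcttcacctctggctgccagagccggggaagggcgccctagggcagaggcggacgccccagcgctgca
Slc16a1: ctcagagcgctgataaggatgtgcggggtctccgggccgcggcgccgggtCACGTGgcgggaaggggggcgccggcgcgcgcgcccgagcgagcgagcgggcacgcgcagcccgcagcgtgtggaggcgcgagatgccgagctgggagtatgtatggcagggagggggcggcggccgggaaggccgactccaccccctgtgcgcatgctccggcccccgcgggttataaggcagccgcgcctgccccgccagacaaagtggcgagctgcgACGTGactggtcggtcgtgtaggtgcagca
Ldha: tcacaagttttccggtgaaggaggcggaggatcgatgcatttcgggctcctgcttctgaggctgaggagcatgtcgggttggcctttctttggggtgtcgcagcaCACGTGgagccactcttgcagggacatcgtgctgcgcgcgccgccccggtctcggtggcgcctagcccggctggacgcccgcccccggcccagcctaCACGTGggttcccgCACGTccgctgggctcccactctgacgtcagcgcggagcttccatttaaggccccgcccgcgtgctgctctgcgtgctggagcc
Slc16a3: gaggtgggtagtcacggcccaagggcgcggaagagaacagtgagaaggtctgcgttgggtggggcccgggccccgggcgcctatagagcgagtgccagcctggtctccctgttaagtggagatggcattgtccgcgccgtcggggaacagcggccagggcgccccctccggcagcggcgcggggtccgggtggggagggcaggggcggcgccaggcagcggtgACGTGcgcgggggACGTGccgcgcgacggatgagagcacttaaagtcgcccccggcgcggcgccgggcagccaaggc

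The ACGTG form of the hypoxia core was found in 3 of the 11 listed promoters of 8 members. These are those of Slc16a1 (3 matches), Slc16a3 (2 matches) and the first start of Ldha (5 matches). CACGTG counts once on each strand and its matches overlap. Of all 32851 listed promoters of the same length, 19.6% held this form. The STAT core was in none of the 11 and in 8.3% of all promoters. The listed promoters of Pdk1, Mpc2, Mpc1, Ldhb and Slc16a8 held neither ACGTG nor the STAT core in this window. Other forms of the hypoxia core, such as GCGTG, which the printed Pdk1 promoter holds, were not searched for. Slc16a7 and Bsg have no entry in the table.

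Array facts that touch the results were few. Signals are given as log2 of the processed intensity relative to the 75th percentile of the same array, so that 0 is the level of that percentile, and levels are compared between embryos for 1 probe at a time. The percentile was 856 and 784 intensity units on the homozygous arrays and 1035 to 1258 on the 4 others. The raw spot signal of the negative controls was 43.5 and 48 units on the homozygous arrays and 26 to 27 on the others. Both homozygous arrays were read in a separate scan, that of a second slide, while heterozygous and wild-type arrays shared the first, and the effect of the slide cannot be told apart from that of the homozygous genotype. Homozygous embryo 2 and wild-type embryo 1 had Xist signal and no Y-linked signal above background, and the other 4 embryos the reverse, so the sexes were mixed within homozygous and wild-type embryos. Stat3 itself read 1.39 and 1.1 in homozygous, 1.07 and 0.82 in heterozygous and 0.82 and 0.82 in wild-type embryos at its brighter probe, and since the allele changes residues only, this is no check of the genotypes. Nothing in the labels says how the embryos of a genotype were related, so p-values measure only the spread between these samples, and the number of arrays limits their precision.

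In homozygous embryos, Slc16a7, Pdk1 and Mpc2 read lower than in the other genotypes and Slc16a1 read higher. The remaining 6 genes, Slc16a3, Slc16a8, Bsg, Mpc1, Ldha and Ldhb, lay within 0.24 of wild type at their brightest probes. In limma's fit over all probes, 3 of the 14 were called lower and 1 higher (adjusted p below 0.05) in homozygous against wild-type embryos, a count that includes Slc16a7 and Pdk1, on which the set was chosen. It is 28.6% of the member probes, where 27.9% of all 29832 probes tested were called in this comparison, 14.6% lower and 13.3% higher. For 9 of the 14 probes the homozygous and wild-type values lay fully apart, 5 higher and 4 lower, and this held for 68.9% of all probes, 38.5% higher and 30.3% lower. Against heterozygous embryos 4 of 14 member probes were called as well, 3 lower and 1 higher, and so were 22.9% of all probes, 13.1% lower and 9.71% higher. Values lay fully apart there for 8 of 14, 5 higher and 3 lower, and for 63% of all probes, 34.6% higher and 28.4% lower. Both comparisons use the same homozygous embryos. At the brightest probe of each of the 10 genes the median difference was −0.02 from wild type, while that of all genes was 0.08. In whole embryos, fewer cells of a type and less RNA per cell cannot be told apart.

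**Figure D1:**
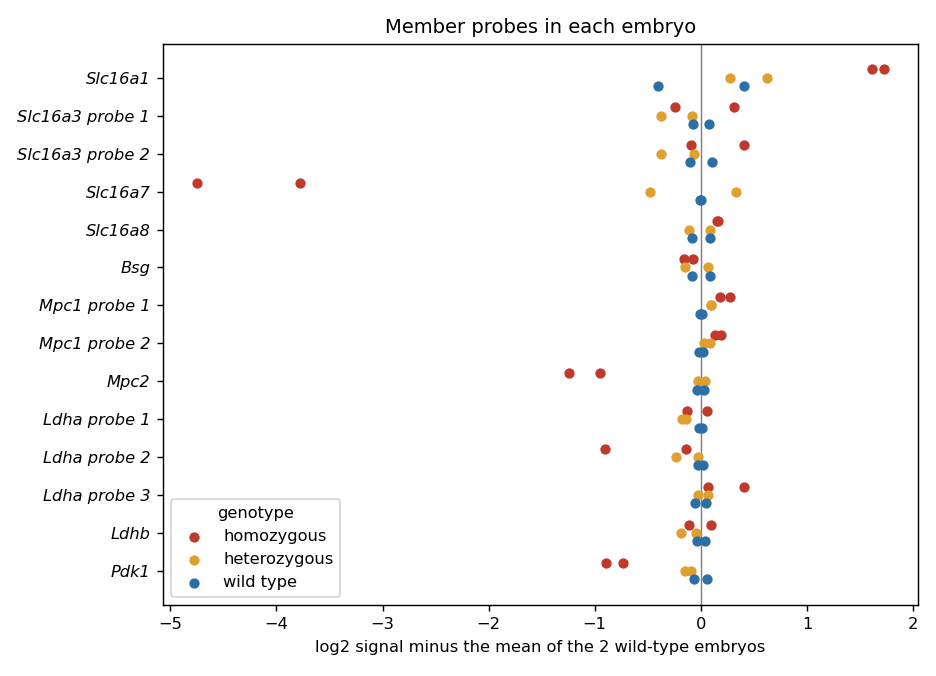
Signal of each of the 14 member probes in each embryo, as log2 minus the mean of the 2 wild-type embryos (x axis), with 1 row per probe and 1 point per embryo, coloured by genotype. The homozygous points of Slc16a7, Mpc2 and Pdk1 lie left of all others and those of Slc16a1 lie right. In these rows the heterozygous points lie closer to wild type than the homozygous points do.

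Slc16a7 encodes MCT2, a high-affinity carrier that takes up lactate and pyruvate and in the adult brain serves neurons. It read −4.18 and −5.14 in homozygous embryos, −0.07 and −0.88 in heterozygous embryos and −0.4 and −0.39 in wild-type embryos. Before scaling, these were intensities of 47.2 and 22.2 units in homozygous, 1131 and 686 in heterozygous and 783 and 809 in wild-type embryos. Both homozygous embryos lay far below the 4 others, and the 2 heterozygous embryos lay on either side of wild type. The difference from wild type was −4.26 ± 0.37 (log2, SE, n = 2 embryos per genotype), a 19.2-fold lower signal, whose size is limited by homozygous signals near background. The difference from heterozygous embryos was −4.19 ± 0.37. Only 0.13% of all genes had a lower difference from wild type. Slc16a7 was measured by a single spot per array, and the 32 gene spots within 3 positions of it had a median difference of 0.24, the lowest of them −0.72. After normexp background correction, which models the local background and adds an offset of 50, the difference was −2.73 with the 75th percentile and −2.93 with quantile normalization.

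The summed level of neuron markers beside it overlapped between genotypes, while single markers moved both ways. All 10 were well above background in every embryo, and their summed signal was 54.8 and 45.3 times the array's 75th percentile in homozygous, 50.5 and 45.5 in heterozygous and 45.9 and 50.1 in wild-type embryos. Both homozygous embryos lay below all 4 others for Elavl3, Snap25 and Nefm and above for Elavl4, Gap43 and Nefl. Against wild type alone, a looser measure, homozygous values lay fully apart for 68.9% of all probes. The share of all probes outside all 4 others was not counted. In limma's test against wild type 2 of the 10 were called lower and none higher. Of all genes 14.5% were called lower and 14% higher. The median difference of the 10 neuron markers was 0.04. Fetal hepatocyte markers summed to 276 and 250 in homozygous embryos, 156 and 191 in heterozygous and 176.5 and 173 in wild-type embryos, with 10 of 10 detected in each. In limma's test against wild type 4 of these 10 were called higher and none lower. Their median difference was 0.57, where that of all genes was 0.08. Erythroid markers summed to 232 and 224 in homozygous, 151 and 176 in heterozygous and 202 and 178 in wild-type embryos (9 of 9 detected). Skeletal and cardiac muscle markers summed to 109 and 104 in homozygous, 105 and 87.3 in heterozygous and 86.1 and 79.4 in wild-type embryos (10 of 10 detected). Against wild type limma called none of the erythroid markers, and 2 muscle markers higher and 1 lower. Trophoblast markers summed to 18.1 and 9.15 in homozygous embryos, 58.8 and 41.6 in heterozygous and 50.5 and 58.2 in wild-type embryos. Of these markers 7 of 8 were detected, with Tpbpa not above background on any array. Most of the sum was Gcm1, at 4.08 and 2.97 in homozygous, 5.85 and 5.34 in heterozygous and 5.63 and 5.84 in wild-type embryos. In limma's test against wild type, 1 of the 7 trophoblast markers tested was called higher and 2 lower. The median difference from wild type of the 7 trophoblast markers tested was 0.39. The part of these cell types in the differences described here was not tested.

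Pdk1 encodes a kinase that phosphorylates and inactivates the pyruvate dehydrogenase complex, which turns pyruvate toward lactate. It read −1.28 and −1.12 in homozygous, −0.54 and −0.48 in heterozygous and −0.45 and −0.33 in wild-type embryos. The homozygous embryos lay below all others, and the heterozygous embryos lay just below wild type without overlap. The difference from wild type was −0.81 ± 0.13, a 1.75-fold lower signal, and that from heterozygous embryos −0.69 ± 0.13. A lower difference from wild type was found for 10.1% of all genes, so a shift of this size was common on these arrays. Pdk1 was measured by a single spot per array. The 44 gene spots within 3 positions of it had differences from −2.02 to 1.35, with a median of 0.17. Background correction hardly moved the Pdk1 difference (−0.79 and −0.8), and without any 1 embryo it was −0.89 to −0.73. The difference was −0.87 without wild type replicate 1 and −0.75 without wild type replicate 2.

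**Figure D2:**
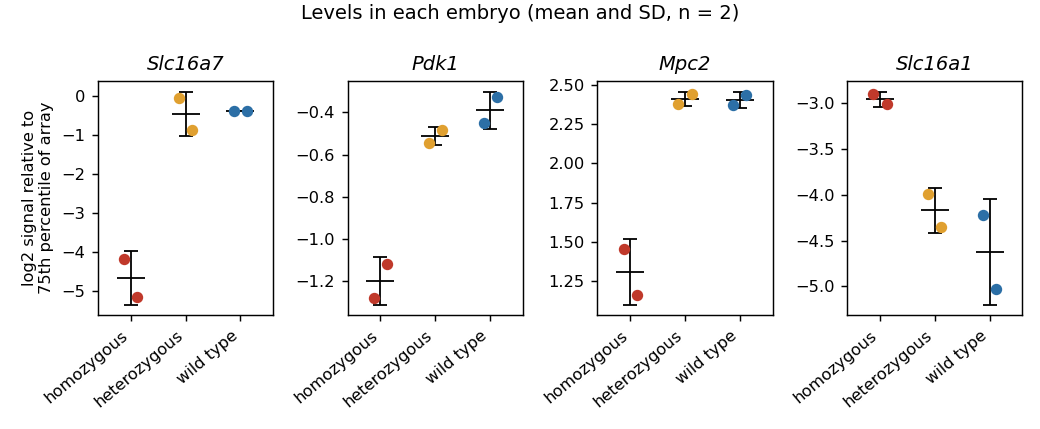
Signal of Slc16a7, Pdk1, Mpc2 and Slc16a1 in each embryo (y axis, log2 relative to the array's 75th percentile, with its own range for each gene), by genotype. Points are embryos, and the bar with whiskers is the mean with SD of 2 embryos. The 2 homozygous embryos lie apart from the 4 others in every panel.

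The mitochondrial pyruvate carrier showed unlike values for its subunits, which work as a pair. Mpc2 read 1.46 and 1.16 in homozygous, 2.38 and 2.44 in heterozygous and 2.37 and 2.44 in wild-type embryos. Heterozygous and wild-type embryos overlapped, and both homozygous embryos lay below them, by −1.09 ± 0.15 against wild type and −1.1 ± 0.15 against heterozygous embryos. The signal was 2.13-fold lower than in wild type, and 6.44% of all genes had a lower difference from wild type. Mpc1 read 3.15 and 3.06 in homozygous, 2.98 and 2.97 in heterozygous and 2.87 and 2.89 in wild-type embryos at its brighter probe. Its homozygous embryos thus lay above wild type, by 0.23 ± 0.12 there and by 0.16 ± 0.12 at its second probe, and neither was called.

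The Mpc2 probe is printed at 10 positions on each array, which gives the spread between its spots within an array. That spread does not cover differences between labellings, scans or slides. The Mpc2 spots ranged over 1.34 to 1.63 and 0.96 to 1.34 on the homozygous arrays, after 1 outlier spot was left out on each. They ranged over 2.35 to 2.43 and 2.39 to 2.47 on the heterozygous arrays and over 2.31 to 2.41 and 2.38 to 2.47 on the wild-type arrays. No spot used on a homozygous array reached a spot of another array. The SD between spots was 0.09 and 0.12 on the homozygous arrays, 0.02 and 0.03 on the heterozygous and 0.03 and 0.03 on the wild-type arrays. Over the 136 probes with 10 spots and a mean above 0, the median SD was 0.04 and 0.05 on the homozygous arrays and 0.03 to 0.05 on the others. Spots of 1 array share an embryo and are not replicates of the genotype.

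**Figure D3:**
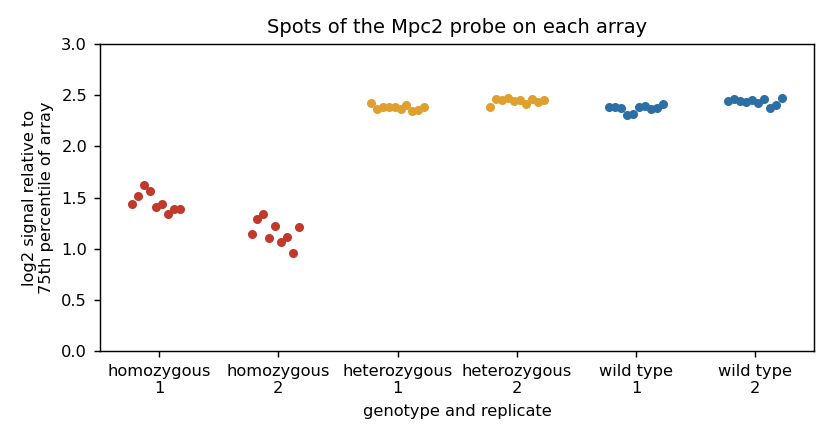
Signal of the Mpc2 spots on each array (y axis, log2 relative to the array's 75th percentile), with 1 point per spot and arrays ordered by genotype and replicate. The spots of the homozygous arrays spread over 0.96 to 1.63, and all spots of the other arrays lie above 2.3.

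Slc16a1 encodes MCT1, the widely expressed carrier that moves lactate in either direction. It read −2.9 and −3.01 in homozygous, −4 and −4.35 in heterozygous and −4.22 and −5.03 in wild-type embryos. Homozygous embryos lay above all others, and heterozygous and wild-type embryos overlapped. The probe was dim, with intensities of 115 and 97.1 units in homozygous, 74.4 and 61.9 in heterozygous and 55.6 and 32.6 in wild-type embryos. The difference from wild type was 1.67 ± 0.28, a 3.17-fold higher signal, and that from heterozygous embryos 1.21 ± 0.28. After normexp background correction it was 1.03 with the 75th percentile and 0.91 with quantile normalization, and it was 1.26 without wild type replicate 2, whose embryo was the lowest. The negative controls, which were higher on the homozygous arrays, stand beside this value, and their part in it was not tested. Slc16a1 was measured by a single spot per array. The 47 gene spots within 3 positions of it had differences from −2.37 to 1.93, with a median of 0.21. A lower difference from wild type than that of Slc16a1 was found for 99.2% of all genes.

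The other carriers at the cell membrane gave small differences. Slc16a3, which encodes the lactate exporter MCT4 of glycolytic cells, read 2.77 and 2.21 in homozygous, 2.37 and 2.08 in heterozygous and 2.38 and 2.53 in wild-type embryos. The 2 homozygous embryos fell on either side of wild type, while at its second probe homozygous embryo 1 lay above both wild-type embryos and homozygous embryo 2 between them. The differences from wild type were 0.04 ± 0.22 and 0.15 ± 0.21 at the 2 probes. Slc16a8 encodes MCT3, the carrier of the retinal pigment epithelium and choroid plexus. It was dim, at −5 and −4.98 in homozygous, −5.25 and −5.05 in heterozygous and −5.06 and −5.23 in wild-type embryos. The homozygous embryos lay just above the others, by 0.16 ± 0.14 from wild type and 0.16 ± 0.14 from heterozygous embryos, where normexp gave 0.26 and 0.39 with the 75th percentile and 0.0059 and 0.011 with quantile normalization. Markers of retinal pigment epithelium and choroid plexus summed to 8 and 6.93 in homozygous, 7.69 and 8.58 in heterozygous and 7.43 and 7.52 in wild-type embryos. In each 8 of 10 were detected, with Rpe65 and Best1 not above background on any array. Most of this sum was Ttr, which is also on the hepatocyte list. In limma's test against wild type, 2 of the 8 markers tested were called higher and 1 lower. Among all genes, 14% were called higher and 14.5% lower.

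Bsg encodes basigin, the membrane glycoprotein that brings MCT1, MCT3 and MCT4 to the cell surface. It read 0.73 and 0.82 in homozygous, 0.75 and 0.96 in heterozygous and 0.98 and 0.81 in wild-type embryos. The 3 genotypes overlapped, with a difference of −0.12 ± 0.14 from wild type for homozygous embryos.

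The lactate dehydrogenase genes read close to wild type at their brightest probes. Ldhb, which encodes the subunit of the form that favours lactate oxidation, read 3.09 and 2.89 in homozygous, 2.95 and 2.8 in heterozygous and 3.03 and 2.96 in wild-type embryos, which overlap. Its difference from wild type was −0.01 ± 0.14. Ldha, which encodes the subunit that favours the making of lactate, was measured by 3 probes that gave unlike values. At the brightest, it read 6.28 and 6.09 in homozygous, 6.07 and 6.04 in heterozygous and 6.2 and 6.23 in wild-type embryos, with homozygous embryos on either side of wild type (−0.03 ± 0.13). At the second, it read 0.04 and 0.8 in homozygous, 0.71 and 0.92 in heterozygous and 0.97 and 0.92 in wild-type embryos. Only homozygous embryo 1 stood clearly below there, and the difference of −0.52 ± 0.25 was −0.9 without homozygous replicate 2 and −0.14 without homozygous replicate 1. At the third, the difference was 0.24 ± 0.16. Quantile normalization after normexp moved the brightest probe to −0.39, the authors' deposited log2 values gave −0.32 and leaving out homozygous replicate 2 gave 0.06. All 3 probes carry the same accession, and which stretch of the transcript each one reads is not given in the files used here.

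Heterozygous embryos, which share a slide with wild type, were tested against it for all 14 probes, and limma called none. The share called among all 29832 probes was 0%, with 621 probes and no member probe at an unadjusted p below 0.05. The largest difference among members was that of Slc16a1, 0.45 ± 0.28 (limma's adjusted p = 1.00, 95% interval −0.21 to 1.12). For the genes that read low in homozygous embryos the heterozygous difference was −0.07 for Slc16a7 (95% interval −0.97 to 0.82), −0.12 for Pdk1 (−0.44 to 0.2) and 0.01 for Mpc2 (−0.35 to 0.36), with adjusted p = 1.00 for each in limma's test. The intervals do not show that heterozygous and wild-type embryos were equal. Heterozygous and wild-type embryos did not overlap for 7 of the 14 probes, 5 lower and 2 higher, where 26.6% of all probes did not overlap. Of these 7, the second Ldha probe, Pdk1, Ldhb, the brightest Ldha probe and the brighter Slc16a3 probe were lower and both Mpc1 probes higher, and every difference was within 0.24.

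Across the 6 arrays, 3 genes most resembled Slc16a7 by Pearson correlation among 16945 other genes with a symbol. These were Bin1 (r = 1.00, homozygous minus wild type −1.57), Trpm1 (r = 1.00, −4.68) and Notch1 (r = 0.999, −4.46). For Pdk1 they were Tpgs1 (r = 0.999, −0.97), Scaf4 (r = 0.998, −0.18) and Atp6v1g1 (r = 0.997, −0.43). The 6 points share 2 slides and are dominated by the step between them, and 1292 genes correlated above 0.95 with Slc16a7 and 709 with Pdk1, so the likeness is given as a description only.

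The other genes of lactate, pyruvate and glucose use were counted at the brightest probe of each gene, in 6 lists of 94 genes of which 86 were measured. In homozygous against wild-type embryos limma called 20 of the 86, 15 higher and 5 lower (23.3%), where 28.5% of all genes were called, 14% higher and 14.5% lower. Without wild type replicate 1 this count was 2, without wild type replicate 2 it was 1, and with no filter on dim probes it was 8 of 92. In heterozygous against wild-type embryos limma called none of the 86 (0% of all genes), and none had an unadjusted p below 0.05. In homozygous against heterozygous embryos it called 16 of the 86, 12 higher and 4 lower, where 23.4% of all genes were called, 10.4% higher and 13% lower, and without heterozygous replicate 1 it called none.

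Genes of the tricarboxylic acid cycle, which oxidises the acetyl groups made from pyruvate, were called higher in 7 of 18 cases and lower in none. Of all genes 14% were called higher and 14.5% lower. The median of the 18 was 0.45. Mdh2, the mitochondrial malate dehydrogenase, read 4.82 and 4.82 in homozygous, 4.16 and 4.16 in heterozygous and 4.09 and 4.23 in wild-type embryos, and rose by 0.66 ± 0.12 (limma's adjusted p = 0.0131). An isocitrate dehydrogenase subunit (Idh3a, 0.74 ± 0.20, adjusted p = 0.0377) and a succinate dehydrogenase subunit (Sdhc, 0.7 ± 0.14, adjusted p = 0.0142) were also higher in limma's test. The second probe of Sdhc read 0.08, and Idh3a was called in 11 of 18 alternative settings (adjusted p 0.0155 to 0.178). Citrate synthase (Cs) did not pass (0.13, adjusted p = 0.5).

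Of 20 glycolysis genes, 5 were called higher and 2 lower, with a median of 0.22. This is 35%, where 28.5% of all genes were called. Pyruvate kinase (Pkm), which makes pyruvate, rose by 0.68 ± 0.16 (limma's adjusted p = 0.0229), and phosphoglycerate kinase (Pgk1) rose by 0.51 ± 0.13 (adjusted p = 0.0344, called in 11 of 18 alternative settings with adjusted p 0.00798 to 0.193). The enolase genes Eno1 and Eno3 were lower by −0.63 ± 0.16 (adjusted p = 0.0303) and −0.74 ± 0.17 (adjusted p = 0.0257) in limma's test. Each of these enolase genes was called in 14 of 18 alternative settings. The glucose transporter Slc2a1 read 0.02 and did not pass.

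In the pyruvate dehydrogenase complex and its regulators, 1 of 10 genes was called, 10% where 28.5% of all genes were. This was Pdpr, a subunit of the phosphatase that opposes the kinases, at −0.56 ± 0.14 (limma's adjusted p = 0.0289). It was well above background on 1 of 2 homozygous arrays, and its sign turned after normexp with the 75th percentile (0.16, adjusted p = 0.251, over a range of 0.0132 to 0.251), and it was called in 7 of 17 alternative settings. The kinase genes of this list did not pass, with Pdk2 at 0.05, Pdk3 at 0.21 and Pdk4 at 0.07. Among other enzymes that make or use lactate and pyruvate limma called none of 10, with 3 at an unadjusted p below 0.05.

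The 17 genes of the hypoxia response, a list that includes no member, had a median of 0.12. Of these 1 was called (5.88%), where 28.5% of all genes were. This was Adm, a vasodilator peptide gene, which was higher by 1.01 ± 0.27 (limma's adjusted p = 0.0377). It was called in 11 of 18 alternative settings (adjusted p 0.00284 to 0.157), and its difference was 1.42 without homozygous replicate 1 and 0.61 without homozygous replicate 2. Vegfa read 0.5 (adjusted p = 0.0801) and Hif1a 0.27 (adjusted p = 0.287), and neither passed in limma's test.

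Of 11 other monocarboxylate carrier genes, 2 were called higher and 2 lower, with a median of 0.29. This is 36.4%, where 28.5% of all genes were called. Slc16a11 rose by 0.77 ± 0.14 (limma's adjusted p = 0.0116). Slc16a4 was lower by −0.45 ± 0.13 (adjusted p = 0.0453) and Slc16a5 by −1.29 ± 0.22 (adjusted p = 0.00939) in limma's test. Slc16a4 was called in 9 of 18 alternative settings (adjusted p 0.0359 to 0.219). Slc16a5 was well above background on 1 of 2 homozygous arrays, and after normexp with the 75th percentile it read −0.19 (adjusted p = 0.25, over a range of 0.00722 to 0.25). Emb, which encodes embigin, the partner that brings MCT2 to the membrane, read 0.29 and did not pass (adjusted p = 0.176).

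**Figure D4:**
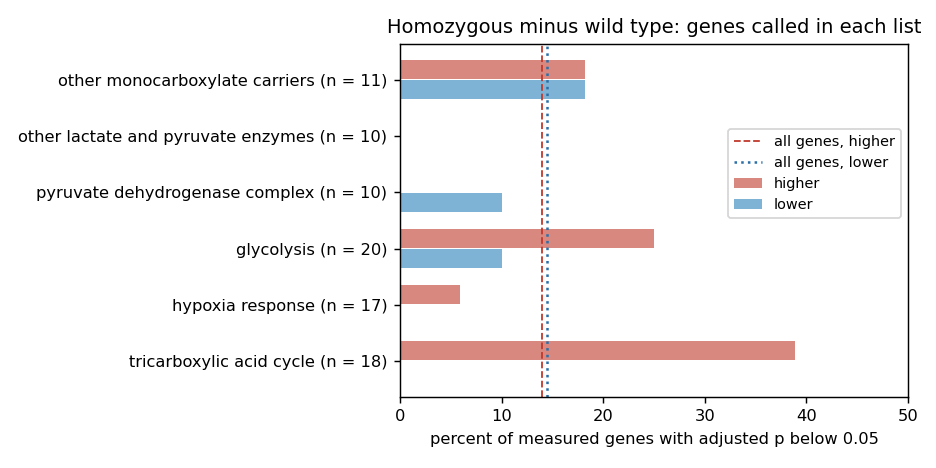
Share of the measured genes of each list with an adjusted p below 0.05 in homozygous against wild-type embryos (x axis, percent, starting at 0), higher and lower as separate bars, with n genes measured beside each list. The dashed and dotted lines mark all genes, 14% higher and 14.5% lower. The tricarboxylic acid cycle has 7 of 18 genes higher and none lower.

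**Figure D5:**
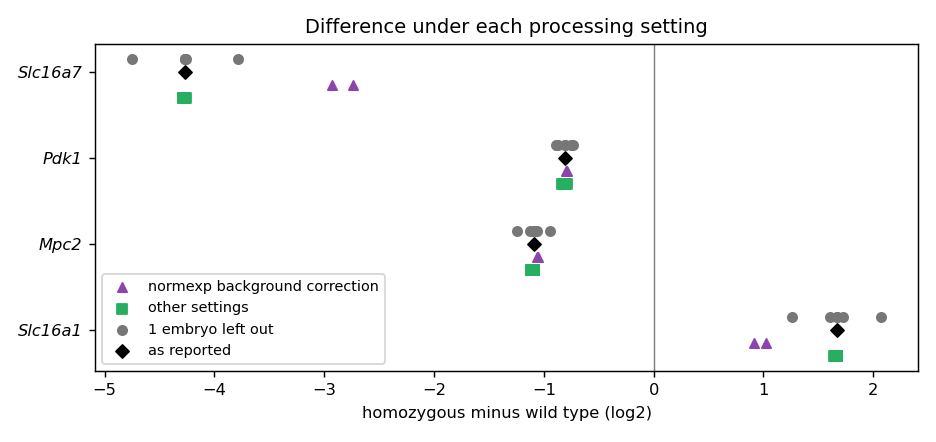
Homozygous minus wild-type difference (x axis, log2) of Slc16a7, Pdk1, Mpc2 and Slc16a1 under each processing setting, with a diamond for the value reported and other markers for the alternatives. Each gene keeps its sign in every setting drawn, and the normexp triangles of Slc16a7 and Slc16a1 lie closer to 0.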

How the data were processed

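Total RNA of 6 mouse embryos was measured on 1-colour Agilent arrays, 2 per genotype, with genotype and replicate number taken from the titles. Intensity values were deposited as Feature Extraction 11.0.1.1 output, which, per the file headers, subtracts background, removes spatial trends and replaces low values by a surrogate. A second deposited table gives log2 values by the authors, with a median of 6.72 in every array and an r of 0.995 to 0.999 with the scanner signal of its own array; how it was centred is unknown here. The array design is annotated to the mm9 build, per the file headers.

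Control spots and outlier spots were left out, log2 values of spots of 1 probe were averaged, and the 75th percentile of each array was subtracted. Of 39429 probes, 29832 were kept, requiring a signal well above background in both embryos of some genotype and a value on all 6 arrays. Accessions were named through a RefSeq gene table of GRCm38.p6, used for names only (69.1% of probes). Genotypes were fitted in 1 model with limma 3.58.1 in R 4.3.3 on 3 residual and 3.37 prior degrees of freedom, with Benjamini-Hochberg adjustment over all kept probes and a threshold of 0.05. The fit was tested on simulated data. The planned normexp correction used the median spot signals. The members and lists were chosen with earlier results of these data known. From each list, up to 4 called genes with the largest homozygous minus wild-type difference were named, and some results under this rule are not reported here. Mdh2's single values, Cs, Slc2a1, Pdk2, Pdk3, Pdk4, Vegfa, Hif1a and Emb were added after their values were seen. Embryos were not paired by replicate number in the fit. Deviations of same-numbered embryos correlated at 0.29 (homozygous and heterozygous), −0.16 (homozygous and wild type) and −0.00178 (heterozygous and wild type). These values cannot show whether the numbers pair the embryos.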

Additional observations from a re-analysis of the deposited data

How the results depend on the processing

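The differences of Slc16a7, Pdk1, Mpc2 and Slc16a1 from wild type in homozygous embryos kept their sign in all 18 alternative settings. Over these, Slc16a7 ranged from −4.75 to −2.73, Pdk1 from −0.89 to −0.73, Mpc2 from −1.24 to −0.95 and Slc16a1 from 0.91 to 2.07. Heterozygous minus wild-type differences of members turned sign in 12 of 244 values, none of them called. With the median of each array Mpc2 was −0.039 and the third Ldha probe −0.026, and with the authors' deposited log2 values that probe was −0.0026. Leaving out 1 embryo gave −0.026 to 0.042 for Mpc2, −0.11 to 0.091 for Slc16a8, −0.15 to 0.064 for Bsg, −0.48 to 0.33 for Slc16a7 and −0.031 to 0.075 for the third Ldha probe. Among genes named from the lists, Pdpr turned to 0.16 after normexp with the 75th percentile.

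Of 14 member probes, leaving out 1 embryo gave 3 to 5 called in homozygous against wild-type embryos, 2 to 5 against heterozygous embryos (2 without either heterozygous replicate) and 0 in heterozygous against wild-type embryos. Over all probes, it gave 2092 to 10790 against wild type (main value 8314; 2434 without wild type replicate 1 and 2092 without replicate 2), 1928 to 9597 against heterozygous embryos (main value 6817; 1928 and 2781 without heterozygous replicate 1 and 2, 3547 without either wild type replicate) and 0 to 7 in heterozygous against wild-type embryos (1 without heterozygous replicate 2, 3 and 7 without wild type replicate 1 and 2). Over the list genes it gave 1 to 27 against wild type (main value 20; 13 without either heterozygous replicate) and 0 to 23 against heterozygous embryos (main value 16; 0 and 2 without heterozygous replicate 1 and 2, 3 without either wild type replicate), and 0 in heterozygous against wild-type embryos. Where 1 embryo of a genotype remains, it is assumed to vary like the others.

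Against heterozygous embryos, normexp with the 75th percentile called 13930 probes and 34 list genes, and normexp with quantile normalization 26 list genes. With no filter on dim probes, 8 list genes were called against wild type and 9 against heterozygous embryos. With only the genotypes compared in the fit, 13 list genes were called against wild type, and 3547 probes and 3 list genes against heterozygous embryos. The cause was not tested for any of these. In homozygous against wild-type embryos normexp with the 75th percentile shifted the all-probe median by 0.11, to 0.19, and 67.6% of its calls were higher, while 47.7% were without it. Against heterozygous embryos 76.3% were higher with it and 42.5% without it (50.8% after normexp with quantile normalization). With the replicate number as a block, 8098 probes were called against wild type and 6537 against heterozygous embryos, 0 in heterozygous against wild-type embryos, and 4, 4 and 0 member probes. Signals near background limit the size of any difference for Slc16a1, for Slc16a8 and for Slc16a7 in homozygous embryos. The counts over list genes were chosen for this after the data were seen.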
